A study of Arabidopsis thaliana with 4 samples.

Results

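The tonoplast intrinsic proteins (TIPs) are the aquaporins of the plant vacuole membrane, and transcripts of 6 TIP genes of Arabidopsis thaliana were followed here in rosette leaves of plants that over-express a wheat kinase. The 6 are GAMMA-TIP (AT2G36830, TIP1;1), TIP1;2 (AT3G26520), DELTA-TIP (AT3G16240, TIP2;1), TIP2;2 (AT4G17340), TIP2;3 (AT5G47450) and TIP4;1 (AT2G25810). They were found by their locus among 21500 gene probes, with 1 probe each, and the family was selected on its log2 ratios of transformant over wild type and its channel signals in these same arrays. Those values are therefore given as a description, with no test.

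Leaves came from OX17 and OX7, independent T1 transformants of the Col-0 ecotype in which the 35S promoter, a viral promoter active in most plant tissues, drives TaSK5, a GSK3/Shaggy-like kinase of wheat, and from wild-type Col-0 plants without the transgene. All plants were 3 weeks old, received no treatment and grew at 22 °C with 16 h of light and 8 h of dark. RNA of each transformant was set against wild-type RNA on a pair of Agilent arrays in which both dyes were used in turn. Replicate 1 carried the transformant in Cy5, while replicate 2 carried it in Cy3. Each transformant was a single T1 plant and its arrays were repeat hybridisations, so n = 2 transformants, and the labels do not say whether both array pairs used the same wild-type RNA.

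Aquaporins let water cross a membrane along its osmotic gradient. In the vacuole membrane they set how fast the vacuole, which fills most of a leaf cell, takes up or gives off water, and growing cells rely on that uptake. Several TIPs also pass small solutes such as urea, ammonia and hydrogen peroxide. In Arabidopsis GAMMA-TIP, TIP1;2 and DELTA-TIP are the leading TIPs of green tissue, TIP2;2, TIP2;3 and TIP4;1 are better known from roots, TIP3;1 and TIP3;2 from seeds, and TIP1;3 and TIP5;1 from pollen.

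All 6 probes were well above background in every channel, and none was saturated or marked as an outlier. Mean spot intensities before normalisation lay between 522 and 19369 in transformant channels and between 1309 and 25720 in wild-type channels for GAMMA-TIP, TIP1;2, DELTA-TIP and TIP2;2. The TIP2;3 and TIP4;1 spots were dim, with intensities from 106 to 377 in transformant channels and from 211 to 376 in wild-type channels, over local backgrounds of 46.0 to 82.0. Of all gene probes, 86.4% to 95.9% passed the scanner's background test in the transformant channel and 88.9% to 96.0% did so in the wild-type channel. Ratios spread more widely in OX17 than in OX7, with an SD across genes of 0.535 and 0.524 on the OX17 arrays and 0.256 and 0.271 on the OX7 arrays. With so few arrays every value below has limited precision. The probe sequences were not used here, so hybridisation of a related TIP transcript to a probe was not tested.

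No TIP gene moved the same way on all 4 arrays. In OX17, DELTA-TIP was far lower than in wild type, TIP1;2 was lower, and TIP2;2 and GAMMA-TIP were higher. In OX7, DELTA-TIP and TIP1;2 were higher than in wild type and TIP2;2 was slightly lower. TIP2;3 stayed near wild type in both, and in OX17 the arrays of TIP4;1 had opposite signs. These words give the direction of the measured log2 ratios after loess normalisation. For each gene called higher or lower in a transformant, that direction was the same on both of its arrays.

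**Figure D1:**
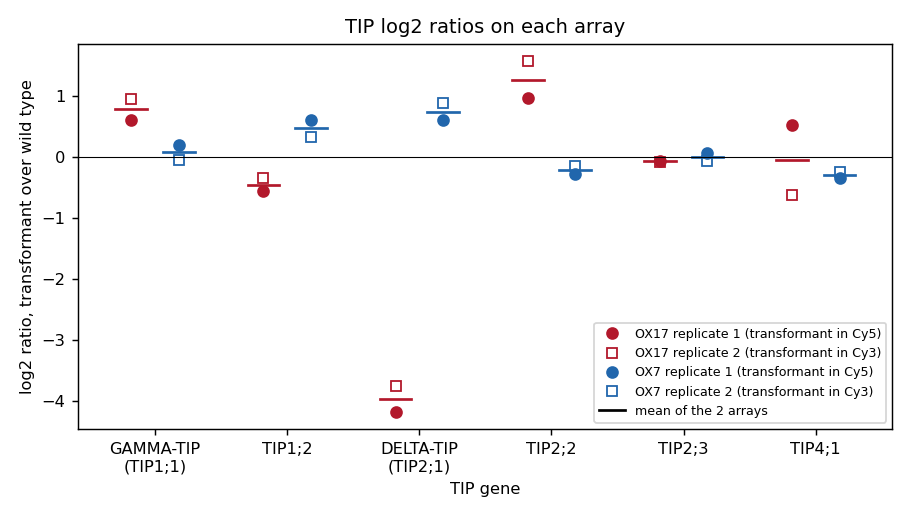
Log2 ratio of transformant over wild type on each array for the 6 TIP genes, with OX17 in red left of OX7 in blue, filled circles for replicate 1, open squares for replicate 2 and bars for the mean of the 2 arrays. DELTA-TIP stands at -4.18 and -3.75 in OX17 and at 0.60 and 0.87 in OX7, the only TIP gene more than 2-fold from wild type on both arrays of a transformant.

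DELTA-TIP, a water and ammonia channel of shoot vacuoles, had the largest ratio of the family. Its log2 ratio was -4.18 on replicate 1 and -3.75 on replicate 2 in OX17, and 0.60 on replicate 1 and 0.87 on replicate 2 in OX7. The arrays of the transformants lay on opposite sides of wild type and did not overlap. The mean in OX17 was -3.97 ± 0.30 (SD of 2 arrays), which puts DELTA-TIP 15.6-fold below wild type, and the mean in OX7 was 0.73 ± 0.20, or 1.66-fold above. The difference, OX17 minus OX7, was -4.70, or 26.0-fold. Among 18439 genes with a usable spot on all 4 arrays, it ranked 2 from the lowest mean ratio in OX17 and 230 from the highest in OX7. Across the same leaves, the median log2 ratio of 7 leaf mesophyll markers was -0.56 in OX17 and 0.34 in OX7. RBCS1A, RCA and GAPA among them had saturated spots, which limits these medians. The unsaturated CA1, LHCB1.3, SHM1 and GLDP1 stood at -2.31, -0.77, -0.56 and 0.14 in OX17. In OX7 they stood at -0.32, 0.59, -0.38 and -0.16. The part of leaf mesophyll in the DELTA-TIP values was not tested. With ratios scaled between arrays, the OX17 mean of DELTA-TIP was -2.95 and the difference -3.93.

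TIP2;2 is a close relative of DELTA-TIP in the same TIP2 group, and its log2 ratios ran the other way. They were 0.96 on replicate 1 and 1.56 on replicate 2 in OX17, and -0.28 on replicate 1 and -0.15 on replicate 2 in OX7. The arrays of the transformants did not overlap, with OX17 above. The mean was 1.26 ± 0.43 in OX17, or 2.39-fold above wild type, and -0.22 ± 0.09 in OX7. The difference, OX17 minus OX7, was 1.48, or 2.78-fold. Centring each array on its median in place of loess gave an OX7 mean of -0.53.

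The third TIP2 gene, TIP2;3, an ammonia channel, stayed near wild type. Its log2 ratios were -0.07 and -0.08 on OX17 replicates 1 and 2 and 0.06 and -0.07 on OX7 replicates 1 and 2. The means were -0.08 in OX17 and -0.01 in OX7, and the arrays of the transformants overlapped. Its spots were dim, and the offset added before logs were taken shrinks ratios of dim spots.

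GAMMA-TIP and TIP1;2 are close paralogs and both are water channels that also pass urea and hydrogen peroxide. GAMMA-TIP had log2 ratios of 0.61 and 0.94 on OX17 replicates 1 and 2 and of 0.19 and -0.05 on OX7 replicates 1 and 2. Its OX17 arrays were both above its OX7 arrays, which stood on either side of 0. The mean was 0.78 ± 0.23 in OX17, or 1.71-fold above wild type, and 0.07 ± 0.17 in OX7, where median centring in place of loess turned it to -0.24.

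TIP1;2, unlike its paralog, lay below wild type in OX17. It had log2 ratios of -0.57 and -0.35 on OX17 replicates 1 and 2 and of 0.60 and 0.33 on OX7 replicates 1 and 2. The transformants lay on opposite sides of wild type without overlap of arrays, as for DELTA-TIP, and the differences were smaller. The means were -0.46 ± 0.15 in OX17 and 0.47 ± 0.19 in OX7, a difference of -0.92, or 1.90-fold. Median centring in place of loess gave -0.74 in OX17 and 0.16 in OX7, so the sizes moved with the dye normalisation and the signs did not.

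TIP4;1, a root TIP that passes urea as well as water, had ratios of 0.53 and -0.62 on OX17 replicates 1 and 2 and of -0.35 and -0.25 on OX7 replicates 1 and 2. Read as Cy5 over Cy3, the log2 ratios were 0.53 and 0.62 on the OX17 arrays and -0.35 and 0.25 on the OX7 arrays. After background correction and loess, both OX17 arrays were thus higher in Cy5 and the OX7 arrays had opposite signs. Before them, the OX17 replicate 1 spot had mean intensities of 203 in Cy5 and 211 in Cy3. The part of the dye was not tested. The OX17 mean was -0.05 ± 0.81. In OX7 both arrays were below 0, with a mean of -0.30 ± 0.07, from dim spots.

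In counts, 0 of the 6 TIP genes were higher on all 4 arrays, where 12.4% of all 18439 genes were, and 0 were lower, where 12.2% were. On both OX17 arrays 2 of the 6 were higher, where 31.4% of all genes were, and 3 were lower, where 33.2% were. On both OX7 arrays 2 were higher, where 30.1% of all genes were, and 2 were lower, where 31% were. TIP1;2 and DELTA-TIP were lower on both OX17 arrays and higher on both OX7 arrays, as were 9.33% of all genes. TIP2;2 alone was higher on both OX17 arrays and lower on both OX7 arrays, as were 7.99%. DELTA-TIP was the only one of the 6 at least 2-fold lower on both OX17 arrays, against 2.04% of all genes, and 0 of the 6 were at least 2-fold higher there, against 2.61%. On both OX7 arrays 0 of the 6 were at least 2-fold higher, against 0.494% of all genes, and 0 at least 2-fold lower, against 0.0976%. At least 2-fold apart without overlap of arrays were TIP2;2 with OX17 above OX7 (2.77% of all genes) and DELTA-TIP with OX17 below OX7 (3.12%). The choice of these genes used the same ratios, so nothing is read from the counts. The median of the 6 mean log2 ratios was -0.06 in OX17 and 0.03 in OX7, against -0.01 and 0.00 over all genes kept.

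**Figure D2:**
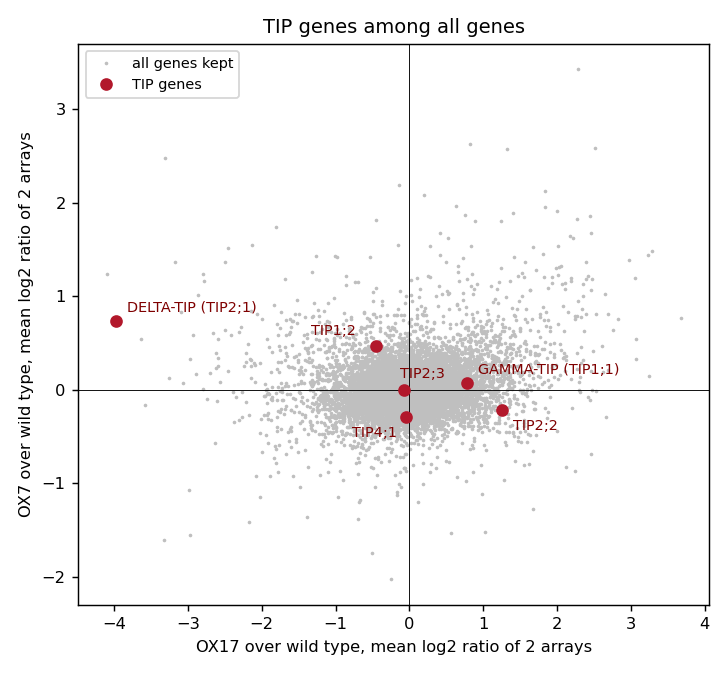
Mean log2 ratio of 2 arrays in OX17 (horizontal) and OX7 (vertical) for 18439 genes in grey and the 6 TIP genes in red. DELTA-TIP lies at the far left, at -3.97 in OX17 and 0.73 in OX7, while TIP2;2 lies on the right, at 1.26 in OX17 and -0.22 in OX7.

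Across all genes, limma on the means of the 2 transformants called 0 of 18854 genes at a Benjamini-Hochberg adjusted p under 0.05 (0%). An unadjusted p under 0.05 was found for 825 genes, fewer than that threshold passes on average when no gene differs. The fit averages OX17 and OX7, so genes such as DELTA-TIP, whose mean over both transformants was -1.62 ± 3.33 (SD, n = 2), have a spread larger than their mean. With 2 transformants the test missed most changes planted in simulated data, so a gene that did not pass is not shown to be unchanged.

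A ratio can differ between array pairs because the transformant signal differs or because the wild-type signal does. After loess within and Aquantile normalisation between arrays, the channels were therefore compared within each dye. In the transformant channel, the DELTA-TIP log2 signal was 10.55 in OX17 and 13.11 in OX7 in Cy5, and 9.55 in OX17 and 13.32 in OX7 in Cy3. In the wild-type channel it was 13.30 on the OX17 array and 12.45 on the OX7 array in Cy5, and 14.73 on the OX17 array and 12.51 on the OX7 array in Cy3. Thus DELTA-TIP signal was lower in OX17 than in OX7 leaves, by a mean log2 difference of -3.17 (8.98-fold), and the wild-type RNA of the OX17 arrays gave 2.90-fold more DELTA-TIP signal than that of the OX7 arrays, a log2 difference of 1.54. Over all genes, a wild-type channel at least 2-fold higher on the OX17 arrays was found for 1.64% and one at least 2-fold lower for 1.16%.

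For TIP2;2 the wild-type channels differed more than the transformant channels. Its log2 signal in the transformant channel was 11.20 in OX17 and 11.07 in OX7 in Cy5, and 12.44 in OX17 and 11.88 in OX7 in Cy3, a mean difference of 0.34. In the wild-type channel it was 10.87 on the OX17 array and 12.03 on the OX7 array in Cy5, and 10.24 on the OX17 array and 11.36 on the OX7 array in Cy3, a mean difference of -1.14. The difference between the transformants' ratios therefore lay mainly in the wild-type signal.

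The TIP1 genes had the same pattern with smaller values. For TIP1;2 the mean log2 difference, OX17 arrays minus OX7 arrays, was -0.23 in the transformant channels and 0.69 in the wild-type channels. For GAMMA-TIP it was 0.15 in the transformant channels, which turned to -0.08 with quantile normalisation of all channels, and -0.55 in the wild-type channels. TIP2;3 had 0.05 in the transformant and 0.12 in the wild-type channels, and TIP4;1 had -0.58 in the transformant and -0.83 in the wild-type channels. In 5 of the 6 TIP genes the wild-type channels thus differed more than the transformant channels, as in 45.1% of all genes, and DELTA-TIP was the exception. Since the labels do not say whether the array pairs shared their wild-type RNA, a difference between wild-type plants and a difference between arrays cannot be told apart.

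**Figure D3:**
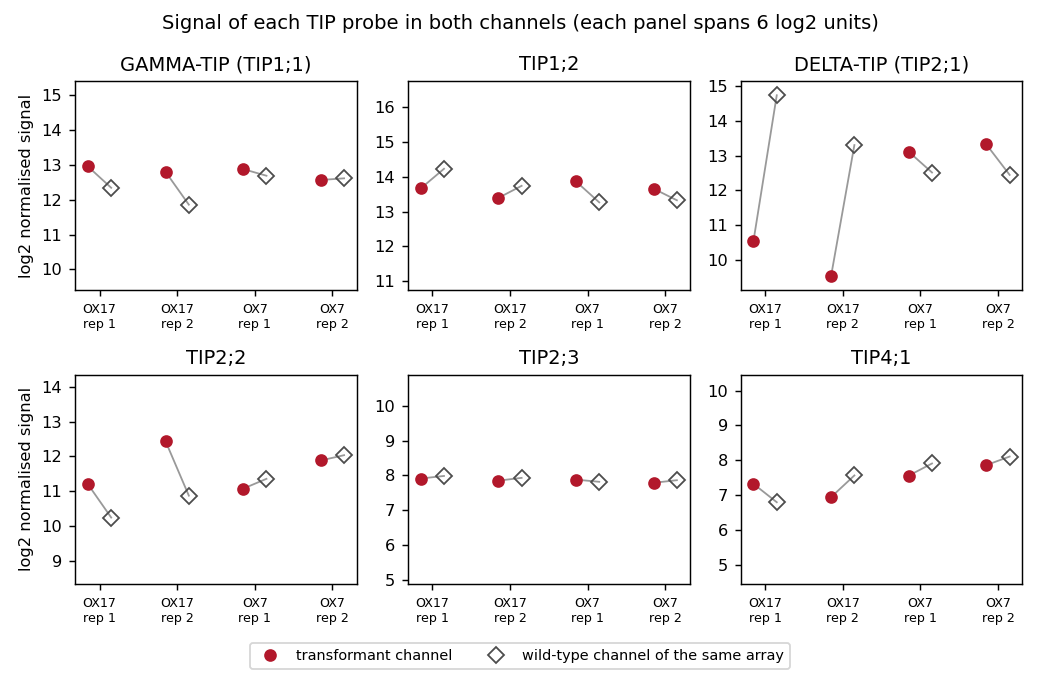
Normalised log2 signal of the transformant channel (red circles) and the wild-type channel (open diamonds) on each of the 4 arrays, joined within an array, with panels that each span 6 log2 units and have their own origin. In DELTA-TIP the transformant signal is at 10.55 and 9.55 on the OX17 arrays while the wild-type signal is at 14.73 and 13.30, and in TIP2;2 the wild-type signal is lower on the OX17 arrays than on the OX7 array of the same dye.

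Transcripts of leaf mesophyll were present as the label implies: all 7 photosynthesis markers were well above background in every channel. Their summed signal ranged from 165775 to 244823 in transformant channels and from 166315 to 262244 in wild-type channels, with saturated spots for RBCS1A, RCA and GAPA. The median log2 ratio of this list was -0.56 in OX17 and 0.34 in OX7. On both OX17 arrays 0 of the 7 were higher and 4 lower, against 31.4% and 33.2% of all genes. On both OX7 arrays 4 were higher and 3 lower, against 30.1% and 31%, and the 4 higher include the saturated RBCS1A, RCA and GAPA. CA1 (AT3G01500), a chloroplast carbonic anhydrase, was the lowest of the list in OX17, at -2.31, and stood at -0.32 in OX7. RBCS1A, RCA and GLDP1 had OX17 means above 0, of 0.10, 0.19 and 0.14, from arrays of opposite sign. OX17 replicates 1 and 2 stood at -0.55 and 0.75 for RBCS1A, -0.55 and 0.93 for RCA and -0.12 and 0.41 for GLDP1. RBCS1A and RCA were saturated on all 4 arrays, which limits their ratios. Of 10 vascular markers, 0 were higher and 9 lower on both OX17 arrays, where 31.4% of all genes were higher and 33.2% lower. On both OX7 arrays 4 of them were higher and 3 lower, against 30.1% and 31% of all genes. The vascular medians were -0.20 in OX17 and 0.05 in OX7, and the summed signal was 9173 to 10358 in transformant channels and 10006 to 11025 in wild-type channels. The 7 guard cell markers had medians of -0.16 in OX17 and -0.05 in OX7. Their summed signals were 1124 to 1789 in transformant channels and 1279 to 1839 in wild-type channels. The lowest sum of either range was on OX17 replicate 2, where the flagged KAT2 spot was left out of the sum.

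Root markers were listed because several TIPs are better known from roots. Of 12 listed, 11 had a probe and 9 passed the filter on dim probes, which the root hair genes EXPA18 and RBOHC did not. The 9 had a median log2 ratio of -0.04 in OX17 and 0.06 in OX7. Their summed signals were 1996 to 2528 in transformant channels and 1737 to 2008 in wild-type channels, which is low for 9 genes. IRT1 was above background in only 2 transformant channels. The offset added before logs were taken shrinks ratios of dim spots, which limits ratios near 0 in this list. The endodermal gene CASP1 (AT2G36100) had log2 ratios of -0.23 in OX17 and 0.06 in OX7, and the root hair gene COBL9 (AT5G49270) -0.03 in OX17 and 0.01 in OX7. PYK10 (AT3G09260), a beta-glucosidase, was the exception, at 2.39 in OX17 and 1.36 in OX7. The part of any cell type in the TIP values was not tested. In whole leaves fewer cells of a type and less RNA per cell cannot be told apart.

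The 4 other TIP genes, known from seeds and pollen, all gave dim spots that passed the filter. TIP3;1 (AT1G73190) had log2 ratios of -0.91 and -0.22 on OX17 replicates 1 and 2 and 0.46 and 0.15 on OX7 replicates 1 and 2. The pollen gene TIP5;1 (AT3G47440) had 0.63 and -0.56 on OX17 replicates 1 and 2 and -0.01 and -0.44 on OX7 replicates 1 and 2. Read as Cy5 over Cy3, these were 0.63 and 0.56 on the OX17 arrays and -0.01 and 0.44 on the OX7 arrays, and the part of the dye was not tested. TIP1;3 (AT4G01470) had means of -0.00 in OX17 and -0.05 in OX7, and TIP3;2 (AT1G17810) of -0.03 in OX17 and -0.11 in OX7. The median of these 4 genes was -0.02 in OX17 and -0.08 in OX7. Of them 0 passed the limma test (lowest adjusted p = 0.875), against 0% of all genes.

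The plasma membrane aquaporins (PIPs), through which water enters the cell before it reaches the vacuole, had members on either side of wild type in OX17. Of 13 PIP genes, 8 were higher and 4 lower on both OX17 arrays, against 31.4% and 33.2% of all genes. On both OX7 arrays 6 PIP genes were higher and 0 lower, against 30.1% and 31% of all genes. The PIP median was 0.11 in OX17 and 0.08 in OX7. PIP2;3 (AT2G37180) had a log2 ratio of 1.83 in OX17 and 0.09 in OX7, and its close paralog PIP2;2 (AT2G37170) 0.88 in OX17 and 0.07 in OX7, with signal shared between these similar genes not tested. PIP2;7 (AT4G35100) stood at -1.59 in OX17 and 0.25 in OX7, and PIP1;3 (AT1G01620) at -0.80 in OX17 and 0.01 in OX7. On all 4 arrays 3 PIP genes were above wild type and 0 below, against 12.4% and 12.2% of all genes. Of the 13, 0 passed the limma test (lowest adjusted p = 0.846), against 0% of all genes.

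The 8 measured NIPs, which carry boric acid and other solutes, ranged from -0.09 to 0.13 in OX17 and from -0.36 to 0.24 in OX7. Highest was NIP5;1 (AT4G10380), a boric acid channel, at 0.13 in OX17 and 0.24 in OX7, followed by NIP1;2 (AT4G18910) at 0.08 in OX17 and 0.21 in OX7. Lowest was NIP6;1 (AT1G80760), which also carries boric acid, at -0.06 in OX17 and -0.36 in OX7, and before it came NIP7;1 (AT3G06100) at -0.03 in OX17 and -0.17 in OX7. The 3 SIPs, small aquaporins of the endoplasmic reticulum, ranged from -0.10 to 0.25 in OX17 and from -0.24 to 0.01 in OX7, with SIP1;1 (AT3G04090) highest. SIP2;1 (AT3G56950) stood at 0.14 in OX17 and -0.24 in OX7 and SIP1;2 (AT5G18290) at -0.10 in OX17 and -0.09 in OX7. The NIP median was -0.00 in OX17 and 0.06 in OX7, and the SIP median 0.14 in OX17 and -0.09 in OX7. On all 4 arrays 1 NIP was above wild type and 0 below, against 12.4% and 12.2% of all genes. The SIPs had 0 in either direction on all 4 arrays. Of the NIPs 0 of 8 passed the limma test (lowest adjusted p = 0.846), and of the SIPs 0 of 3 (lowest adjusted p = 0.852), against 0% of all genes.

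Proton pumps and other transporters share the vacuole membrane with the TIPs. The pumps, the V-ATPase and the pyrophosphatase AVP1, energise transport into the vacuole. Of 23 measured pump genes, 3 were higher and 15 lower on both OX17 arrays, against 31.4% and 33.2% of all genes. On both OX7 arrays 4 pump genes with a usable spot on all 4 arrays were higher and 4 lower, against 30.1% and 31% of all genes. On all 4 arrays 2 lay above wild type and 2 below, against 12.4% and 12.2% of all genes. The pump median was -0.07 in OX17 and 0.01 in OX7, and 0 passed the limma test (lowest adjusted p = 0.846), against 0% of all genes. AVP1 (AT1G15690) had log2 ratios of -1.35 and -1.09 on OX17 replicates 1 and 2 and -0.19 and -0.24 on OX7 replicates 1 and 2, all below 0. The subunit gene VHA-E3 (AT1G64200) was above 0 on all 4 arrays, with means of 1.32 in OX17 and 0.45 in OX7. VHA-c1 (AT4G34720) stood at -0.32 in OX17 and 0.03 in OX7, and the catalytic subunit gene VHA-A (AT1G78900) at 0.14 in OX17, from 1 array, and 0.14 in OX7.

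Of 18 transporters and channels of the vacuole membrane, 7 were higher and 7 lower on both OX17 arrays, against 31.4% and 33.2% of all genes. On both OX7 arrays 6 were higher and 8 lower, against 30.1% and 31% of all genes. On all 4 arrays 2 lay above wild type and 4 below, against 12.4% and 12.2% of all genes. The transporter medians were -0.03 in OX17 and -0.02 in OX7, and 0 passed the limma test (lowest adjusted p = 0.846), against 0% of all genes. The zinc transporter gene MTP1 (AT2G46800) stood at 0.64 in OX17 and 0.31 in OX7, and the inositol transporter gene INT1 (AT2G43330) at 0.41 in OX17 and 0.40 in OX7. The calcium exchanger gene CAX1 (AT2G38170) had means of -0.76 in OX17 and -0.37 in OX7. The median size of the difference between transformants, regardless of sign, was 0.81 for the 6 TIP genes, 0.17 for the 4 other TIP genes, 0.51 for the PIPs, 0.13 for the NIPs, 0.24 for the SIPs, 0.15 for the pumps, 0.33 for the transporters, 0.70 for the leaf mesophyll markers and 0.20 over all genes kept. The 6 TIP genes were selected on these ratios, so their value is no sign of a difference from the other lists. The value of the leaf mesophyll markers is that of RBCS1A, which was saturated on all 4 arrays, so it is limited too.

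**Figure D4:**
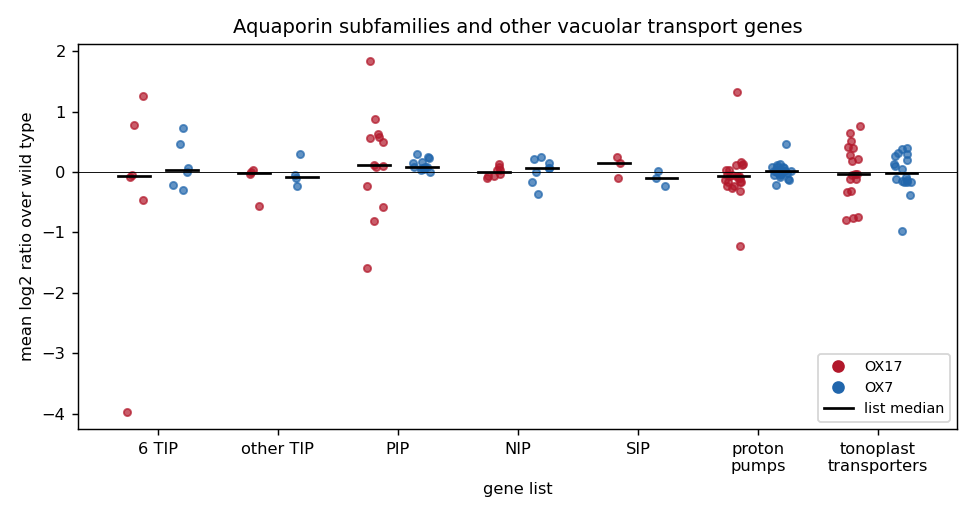
Mean log2 ratio over wild type of each gene in OX17 (red, left) and OX7 (blue, right) for 7 lists of aquaporins and vacuole membrane transport genes, with bars at list medians. TIP and PIP genes spread both ways in OX17, from -3.97 to 1.26 and from -1.59 to 1.83, while the NIPs stay between -0.09 and 0.13.

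Genes with a pattern like that of the TIPs were sought over the 4 arrays by the root mean square difference of log2 ratios. The median of the 6 TIP genes was 0.23 and -0.21 on OX17 replicates 1 and 2 and 0.13 and -0.06 on OX7 replicates 1 and 2, so it changed sign with the dye orientation. The 8 genes closest to it, at differences of 0.0152 to 0.0364, were DAC (AT3G17930), AT5G65490, MYB85 (AT4G22680), EMB1129 (AT1G49400), AT2G21850, AT1G24370, AT1G78730 and PDK (AT3G06483). None of these had a ratio beyond 0.28 in size on any array.

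The median hides DELTA-TIP, so the 8 genes closest to DELTA-TIP alone were listed too, a choice made after the values were seen. The closest, at a difference of 0.324, was AT5G44020, which the file describes as vegetative storage protein-like, with log2 ratios of -3.72 and -3.55 on OX17 replicates 1 and 2 and 0.63 and 0.47 on OX7 replicates 1 and 2. AT2G10940, with no function in the file, followed at 0.451, with -4.01 and -4.18 in OX17 and 1.32 and 1.16 in OX7. The others, at differences of 0.668 to 0.798, were DGR2 (AT5G25460), the mitochondrial carrier gene DIC2 (AT4G24570), the arabinogalactan protein genes AGP17 (AT2G23130) and AGP12 (AT3G13520), the AP2 domain factor gene ORA47 (AT1G74930) and AT1G29660, a putative lipase. The 2 lists shared 0 genes.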

How the data were processed

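The scanner output came from Agilent Feature Extraction 7.5.1, per the file headers, and holds mean spot intensity and local background intensity per channel and a processed log10 ratio of Cy5 over Cy3 after LOWESS dye normalisation. The authors also deposited log2 ratios per probe, for which limma is among the tools in the submitters' processing notes. Set against the loess ratios, the columns of that table ran as Cy5 over Cy3 (r from 0.992 to 0.998), with medians of -0.00408 and 0.00358 for OX7 and -0.00543 and 0.00486 for OX17 replicates 1 and 2. How it was background-corrected and centred is not given in the sources used here.

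Starting from the intensities, limma 3.58.1 (R 4.3.3) applied normexp with an offset of 50, loess within arrays with 1075 control spots at weight 0, and each log2 ratio turned to transformant over wild type. Outlier-flagged spots (60 to 173 per array) were left out. The filter on dim probes asked for a signal well above background in all 4 transformant or all 4 wild-type channels (18871 genes passed). Because loess sets the usual ratio to 0 at each brightness, a common shift of most genes is invisible here. The 2 arrays per transformant gave 1 mean each, and these were tested against 0 with lmFit and eBayes, Benjamini-Hochberg over 18854 genes with a value in both transformants. The test was checked on simulated data. Of 21500 loci, 21191 were named in the RefSeq gene table of assembly TAIR10.1; coordinates are left out because the probes come without a genome build, and no probe, promoter or protein sequences were used here.

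The members and lists were chosen with earlier results of these data known. Named genes were all TIPs, the 2 highest and 2 lowest mean log2 ratios of each other transport list, and the 8 genes nearest to the TIP median. Of these, 1 gene is not reported here. Marker genes beyond the rule (CA1, CASP1, COBL9, EXPA18, RBOHC and PYK10) were chosen after their values were seen. Alternatives were other background corrections, normalisations and filters, the authors' table, each array left out and each transformant alone.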

Additional observations from a re-analysis of the deposited data

Results flagged for a closer look

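In 3 of the 6 TIP genes, both arrays of OX17 moved one way from wild type and both arrays of OX7 the other, a pattern that 9.33% of all genes showed with OX17 lower and 7.99% with OX17 higher. Among the 4 other TIP genes TIP3;1 had it too, with means of -0.56 in OX17 and 0.30 in OX7, and 3 of 13 PIP genes had it with OX17 lower. For the 6, the difference of log2 ratios, OX17 minus OX7, was -4.70 for DELTA-TIP, with means of -3.97 in OX17 and 0.73 in OX7. It was -0.92 for TIP1;2, with means of -0.46 in OX17 and 0.47 in OX7, and 1.48 for TIP2;2, with means of 1.26 in OX17 and -0.22 in OX7. These differences were not tested, since each transformant has repeat hybridisations of 1 RNA pair. The wild-type channels differed between the array pairs by log2 values of 1.54 for DELTA-TIP, 0.69 for TIP1;2 and -1.14 for TIP2;2, OX17 arrays minus OX7 arrays.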

How the results depend on the processing

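Over 7 processing alternatives, the log2 ratio of DELTA-TIP ranged from -4.08 to -2.95 in OX17 and from 0.42 to 0.98 in OX7, and that of TIP2;2 from 0.93 to 1.27 in OX17 and from -0.53 to -0.21 in OX7. TIP1;2 ranged from -0.74 to -0.34 in OX17 and from 0.16 to 0.65 in OX7, so these 3 genes kept their signs in both transformants. GAMMA-TIP in OX7 and TIP2;3 in OX7 changed sign under 1 and 2 of the 7. Keeping flagged spots and dropping the filter on dim probes are among the 7 and could not move a TIP ratio. No spot of these genes was flagged, and all of them passed the filter. The transformant channel difference of GAMMA-TIP turned to -0.0810 with quantile normalisation of all channels, and the cause was not tested. Leaving out 1 array at a time, the number of TIP genes with 1 direction on all remaining arrays ranged from 0 to 1: TIP4;1 without OX17 replicate 1, TIP2;3 without OX7 replicate 1 and GAMMA-TIP without OX7 replicate 2. The number at least 2-fold apart without overlap ranged from 2 to 3, TIP1;2 being added without OX17 replicate 2 or without OX7 replicate 2. The count of all genes higher on every array was 2281, with 1314 under median centring, for which the cause was not tested. With 1 array left out, so that fewer arrays have to share a direction, that count was 2591 to 3570, and the count lower on every array was 2629 to 3936, against 2257. Replicate numbers mark dye orientation, not pairs of plants. A fit of all 4 arrays with the replicate number as a block, which takes repeat hybridisations for samples, called 1 gene against 0, and deviations from the transformant mean correlated with r = 0.561 between arrays of the same number. Dim spots limit what TIP2;3, TIP4;1 and the seed and pollen TIPs can show.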
